A study of Mus musculus with 14 samples.

Results

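The Cyp3a and Cyp2b genes encode microsomal cytochrome P450 monooxygenases that oxidize drugs, steroids and other foreign or endogenous lipids. The 8 genes described here were Cyp3a11, Cyp3a13, Cyp3a25, Cyp3a44, Cyp3a59, Cyp2b10, Cyp2b19 and Por, taken by gene symbol from the 54532 genes of the count table. RNA came from the ileal mucosa of male mice given a high-fat diet (HFD) for 15 weeks, with 7 WT and 7 IKO animals. WT mice carried NCoR1 flox/flox alleles without Cre, and IKO mice carried the same floxed alleles together with Cre recombinase under the villin promoter, which is active in intestinal epithelial cells. NCoR1 is a corepressor that nuclear receptors recruit to keep target genes silent. The comparison asked how the RNA of these enzymes differed when NCoR1 was lost from the epithelium of mice on this diet. The paper reports that on this diet IKO mice gained less weight than WT mice and had a lower fat mass. Effects of genotype and of body fat on these RNAs thus cannot be told apart here. Scraped mucosa also holds cells in which villin is not active, so any part of a transcript made by such cells came from cells with intact alleles, and in such bulk samples fewer cells of a type and less RNA per cell cannot be told apart.

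P450 enzymes of this kind sit in the membrane of the endoplasmic reticulum and carry a heme group at which oxygen is activated. They receive electrons from NADPH through P450 oxidoreductase, the product of Por, and in part through cytochrome b5. In liver and intestine, Cyp3a and Cyp2b genes are known targets of the xenobiotic receptors PXR (Nr1i2) and CAR (Nr1i3), which bind DNA together with RXR. In the gut, CYP3A enzymes are best known for first-pass metabolism of oral drugs.

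The libraries held 14749669 to 18744592 counts in WT and 15822384 to 21557468 in IKO mice. The share of mitochondrially encoded genes was 50.3% in IKO 4, 23.9% in WT 3 and 3.49% to 10.3% in the other 12 libraries, and smooth muscle markers summed to 10855 counts per 1000000 (CPM, with TMM scaling) in WT 4 against a WT median of 22.6. Results were therefore also computed without WT 3, WT 4 and IKO 4. Ncor1 RNA, counted over the whole gene and not over the deleted part alone, had a log2 fold change of -1.41 (SE 0.18, adjusted p = 0.00051, edgeR). The label of intestinal epithelial cells was checked against markers. Enterocyte markers summed to 13292 to 47360 CPM in WT and 33972 to 48689 CPM in IKO mice, with 0 of 7 called (edgeR), and the 6 ileum markers summed to 1541 to 9676 and 1482 to 7147 CPM, with 0 called. The enterocyte sums of WT 1, WT 3, WT 4 and WT 7 lay below those of every IKO mouse. WT 3 and WT 7 were also the lowest WT mice in Cyp3a11, Cyp3a13, Cyp3a25, Cyp2b10 and Por. Hepatocytes are the other main site of these enzymes. Their 9 markers summed to 32.4 to 230.4 CPM in WT and 49.0 to 193.0 CPM in IKO mice, 3 were high enough to test and 0 of these were called. Most of that sum was Cps1, which the small intestine also expresses, while Alb had 4 counts in all 14 libraries together and Cyp7a1 had 0. Of the markers of smooth muscle, immune, goblet and Paneth cells and of proximal intestine, 0 were called. Smooth muscle markers, high in WT 4, had a median log2 fold change of -3.10. Proximal intestine markers varied widely, with sums of 138 to 1714 CPM in WT and 74.9 to 712 CPM in IKO mice. WT 3 and WT 7, and IKO 2 and IKO 4, were the lowest of their genotypes in these sums, as in Cyp3a11, Cyp3a25, Cyp3a13 and Cyp2b10. The 6 markers of exocrine pancreas summed to 4.84 to 8.56 CPM in WT and 7.70 to 19.8 CPM in IKO mice. Most of that sum was Cela1, the 1 that could be tested, which rose and had 2234 counts in all 14 libraries together. Cela2a, Cpa1, Pnlip and Prss2 had 37, 34, 31 and 22 counts, and Amy2b was at 0 counts. The part of any of these marker differences in the results was not tested.

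Of the 8 genes, 7 were expressed highly enough to test, and 4 rose in IKO mice while 0 fell. These were Cyp3a11, Cyp3a44, Cyp3a25 and Cyp3a59, with fitted changes between 4.70-fold and 24.5-fold. In the whole fit, 8.67% of the 13846 genes tested were called, 4.38% as higher and 4.28% as lower (edgeR quasi-likelihood test, adjusted p under 0.05). Cyp3a13, the member with most RNA in WT mice, and Cyp2b10 did not pass the test, and Por narrowly missed it. Cyp2b19 had 0 counts in all 14 libraries. Cyp3a44 entered the fit through its IKO samples alone, and Cyp3a59 would not have entered it on its WT samples, so a difference was built into their being tested and the number of members called is only a description.

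**Figure D1:**
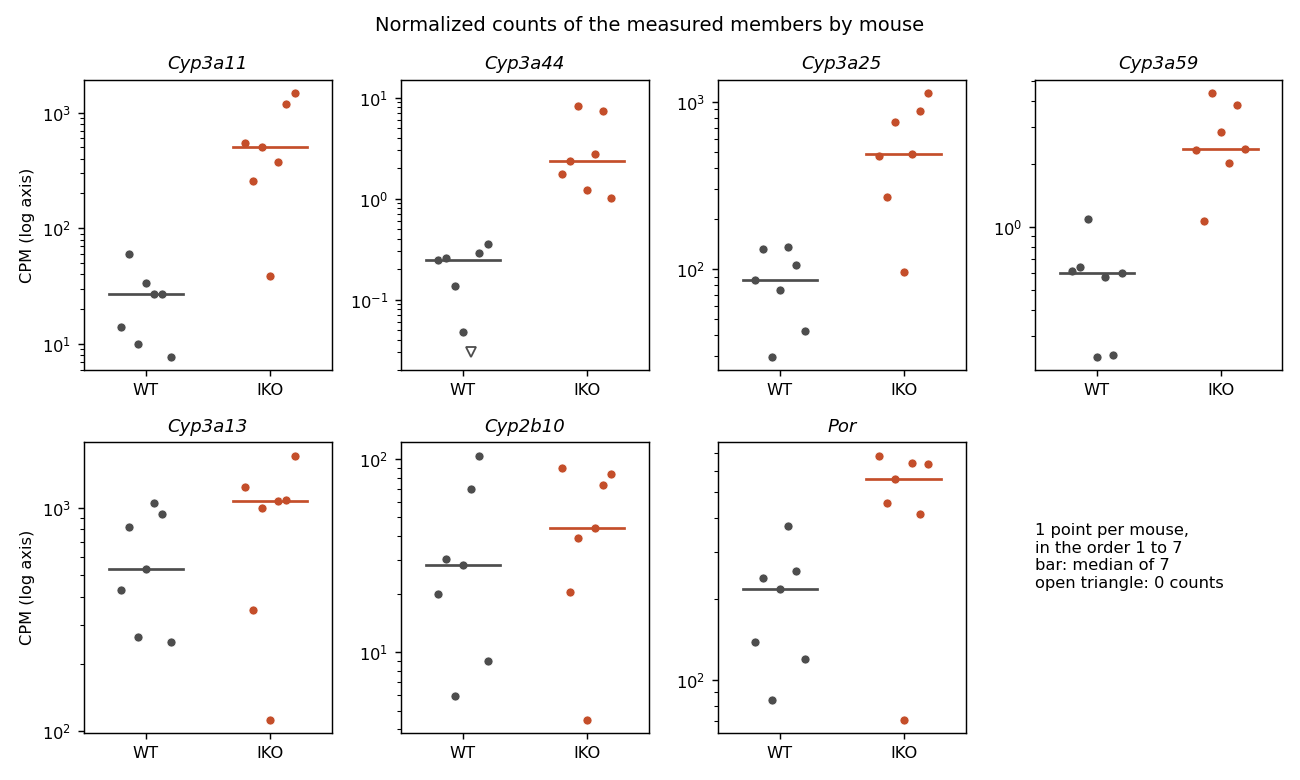
Normalized counts (CPM, log axis, a separate scale in each panel) of the 7 members with counts, with 1 point per mouse in the order 1 to 7 and a bar at the median of 7. For Cyp3a44 all IKO points lie above all WT points, for Cyp3a11 and Cyp3a25 the IKO point within the WT range is IKO 4, and for Por IKO 4 lies below the WT range.

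Cyp3a11 is the main inducible Cyp3a enzyme of the mouse and the usual counterpart of human CYP3A4. Its normalized count was 7.71 CPM in the lowest WT mouse, 27.1 at the median and 60.2 in the highest. In IKO mice it was 38.5, 509 and 1480 CPM. The genotypes overlapped through IKO 4 alone, which lay below WT 2, and the other 6 IKO mice were above every WT mouse. The fitted change was 24.5-fold (95% confidence interval 8.83 to 67.9), or 4.61 on the log2 scale (SE 0.69, adjusted p = 0.00179, edgeR), the fourth largest increase of all genes tested. Without WT 3, WT 4 and IKO 4 the log2 fold change was 4.74 (adjusted p = 0.0023). The spread among IKO mice was wide, with the highest IKO value 38.5 times the lowest.

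Cyp3a44 is a close copy of Cyp3a11 and is known mainly from female liver. It was at the edge of detection in WT mice, with 0 to 10 counts per library and 29 in all. IKO libraries held 11 to 149 counts each and 427 in all. On the normalized scale this was 0 to 0.354 CPM (median 0.245) in WT mice and 1.02 to 8.26 CPM (median 2.36) in IKO mice. The groups did not overlap, as they did not for 1.83% of all genes tested in the same direction and 1.26% in the opposite direction. Nothing is read from this for Cyp3a44, since 0 WT and 7 IKO libraries passed the cutoff for testing, which by itself set the groups apart. The fitted log2 fold change was 4.14 (SE 0.66, adjusted p = 0.00277, edgeR), which for such low WT counts depends on the model's handling of values near 0. It was 4.02 (adjusted p = 0.0102) without WT 3, WT 4 and IKO 4. The IKO mouse with the most Cyp3a11 was not that with the most Cyp3a44, and no correlation between these genes was computed. IKO 7 had the most Cyp3a11 counts, 24566, and only 17 of Cyp3a44, while IKO 3 had 9190 and 149.

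Cyp3a25 encodes a further Cyp3a enzyme of mouse liver and gut. In WT mice it lay between 29.7 and 135 CPM with a median of 85.8, and in IKO mice between 95.5 and 1130 CPM with a median of 486. IKO 4, at 95.5 CPM, lay inside the WT range and the other 6 IKO mice lay above it. The fitted change was 6.77-fold with an interval (95%) of 3.34 to 13.7, which is 2.76 on the log2 scale (SE 0.48, adjusted p = 0.00490, edgeR). It was 2.74 (adjusted p = 0.0034) without WT 3, WT 4 and IKO 4.

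Cyp3a59, the closest copy of Cyp3a25, was read at low depth. WT libraries held 5 to 17 counts and IKO libraries 18 to 79. Its normalized counts were 0.237 to 1.09 CPM in WT mice (median 0.602) and 1.06 to 4.38 CPM in IKO mice (median 2.35). Here the overlapping samples were IKO 2, the lowest IKO mouse, and WT 3, the highest WT mouse. The log2 fold change was 2.23 (SE 0.39, adjusted p = 0.00500, edgeR) and 2.30 (adjusted p = 0.0114) without WT 3, WT 4 and IKO 4.

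Cyp3a13 is a Cyp3a form known for its expression in mouse intestine. It ranged from 251 to 1047 CPM in WT mice (median 530) and from 113 to 1705 CPM in IKO mice (median 1067). IKO 4 and IKO 2 were the lowest IKO mice, and IKO 4 lay below every WT mouse. The log2 fold change was 0.62 (SE 0.48, adjusted p = 0.400, edgeR), and the interval of the fold, 0.755 to 3.11, leaves room for a moderate change in either direction.

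Cyp2b10 is the classic target of CAR in mouse liver. It lay between 5.91 and 104 CPM in WT mice (median 28.4) and between 4.48 and 90.3 CPM in IKO mice (median 43.9). The ranges of the genotypes were nearly the same, and both were wide. The log2 fold change was 0.41 (SE 0.63, adjusted p = 0.687, edgeR), with a 95% confidence interval of the fold from 0.527 to 3.34.

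Por supplies electrons to all microsomal P450 enzymes. It ranged from 83.9 to 376 CPM in WT mice (median 219) and from 70.8 to 686 CPM in IKO mice (median 560). The 6 IKO mice other than IKO 4 were above every WT mouse, and IKO 4 was below every WT mouse. The log2 fold change was 1.28 (SE 0.41, adjusted p = 0.0609, edgeR), with a fold of 2.43 and an interval of 1.32 to 4.44. Por passed the threshold without IKO 4 (log2 fold change 1.48, adjusted p = 0.0132), without WT 5 (adjusted p = 0.0431), without WT 3, WT 4 and IKO 4 (adjusted p = 0.0313) and with DESeq2 on all samples (adjusted p = 0.0161), where 7.67% of genes rose and 8.94% fell. The summed goblet cell markers (2803 CPM) and proximal intestine markers (74.9 CPM) of IKO 4 were the lowest of the IKO mice. Their part and that of the high mitochondrial share of IKO 4 in its low values were not tested.

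**Figure D2:**
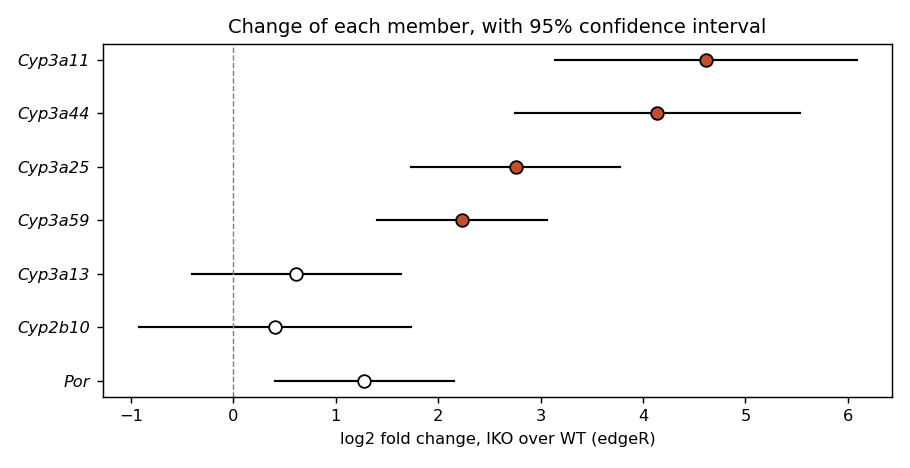
Log2 fold change of each tested member, IKO over WT, from edgeR (point) with its 95% confidence interval (line), filled where the adjusted p was under 0.05. The 4 filled points run from 2.23 for Cyp3a59 to 4.61 for Cyp3a11, and the intervals of Cyp3a13 and Cyp2b10 include 0.

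The genes that rose are neighbours. Cyp3a44 (chr5:145773983-145805874), Cyp3a11 (chr5:145854426-145879964), Cyp3a25 (chr5:145977194-146009618) and Cyp3a59 (chr5:146079257-146113287) lie within 339 kb of chromosome 5 of the mouse genome (mm10), the first 3 on the minus strand and Cyp3a59 on the plus strand. Cyp3a13 (chr5:137892932-137921619, minus strand) lies 7.85 Mb away on the same chromosome. Por (chr5:135670033-135735326, plus strand) lies further along in the same direction, and Cyp2b10 (chr7:25897620-25926624) and Cyp2b19 (chr7:26757142-26772630) are on the plus strand of chromosome 7. A further 11 rows of the table carry a Cyp3a or Cyp2b symbol, and 3 of these had any count. Cyp3a63-ps had 13 counts, all in the WT 3 library, Cyp3a16 had 8 and Cyp3a61-ps1 had 3, so the expressed part of the cluster was nearly all in the 4 genes named.

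Close copies can exchange reads. In their GENCODE M21 transcripts, Cyp3a25 and Cyp3a59 were 97.0% identical and Cyp3a11 and Cyp3a44 were 93.5% identical, against 71.7% for Cyp3a11 and Cyp3a13. Only 13 stretches of 150 bases, the read length, were the same in Cyp3a25 and Cyp3a59 (0.586% and 0.649% of their stretches), and 0 stretches of Cyp3a11, Cyp3a13, Cyp3a44, Cyp2b10 or Por were the same as in another gene. A read with an exact match can thus be placed nearly everywhere in these genes. How the counting treated reads with several matches is not given in the sources used here, and reads with mismatches were not examined, so the low counts of Cyp3a44 and Cyp3a59 remain uncertain beside their abundant copies. Cyp3a41a and Cyp3a41b, at 0 counts, shared 82.9% and 82.7% of their stretches with each other, so their count of 0 is uncertain too.

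The promoters of the 4 genes that rose are shown because these genes lie together and all rose, with that of Cyp3a13 for comparison. Each sequence holds the 250 bases before the RefSeq start of the gene (GRCm38.p6), written 5′ to 3′ on the strand of the gene. The positions are chr5:145879855-145880104 (minus), chr5:145805875-145806124 (minus), chr5:146009619-146009868 (minus), chr5:146079008-146079257 (plus) and chr5:137921620-137921869 (minus). Capitals mark the nuclear receptor half-site letters AGGTCA and AGTTCA, searched on both strands, so that TGACCT and TGAACT are the same letters on the opposite strand.
Cyp3a11: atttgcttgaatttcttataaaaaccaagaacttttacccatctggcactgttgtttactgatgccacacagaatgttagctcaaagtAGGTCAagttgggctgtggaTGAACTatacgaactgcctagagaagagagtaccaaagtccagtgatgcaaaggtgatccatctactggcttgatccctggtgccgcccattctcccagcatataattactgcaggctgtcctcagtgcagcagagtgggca
Cyp3a44: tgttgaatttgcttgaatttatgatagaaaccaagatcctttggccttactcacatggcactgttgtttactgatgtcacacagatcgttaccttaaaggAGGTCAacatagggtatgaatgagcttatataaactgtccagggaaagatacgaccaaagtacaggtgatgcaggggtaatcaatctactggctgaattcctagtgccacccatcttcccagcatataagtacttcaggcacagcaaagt
Cyp3a25: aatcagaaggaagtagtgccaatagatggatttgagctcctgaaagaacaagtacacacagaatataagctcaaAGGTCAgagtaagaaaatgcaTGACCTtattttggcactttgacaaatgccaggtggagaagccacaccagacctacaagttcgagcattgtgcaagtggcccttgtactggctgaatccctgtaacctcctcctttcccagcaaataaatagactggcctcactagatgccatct
Cyp3a59: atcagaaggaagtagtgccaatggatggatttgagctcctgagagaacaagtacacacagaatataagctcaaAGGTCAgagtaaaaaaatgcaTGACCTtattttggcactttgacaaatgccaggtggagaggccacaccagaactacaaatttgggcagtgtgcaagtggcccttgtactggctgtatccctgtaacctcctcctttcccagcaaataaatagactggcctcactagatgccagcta
Cyp3a13: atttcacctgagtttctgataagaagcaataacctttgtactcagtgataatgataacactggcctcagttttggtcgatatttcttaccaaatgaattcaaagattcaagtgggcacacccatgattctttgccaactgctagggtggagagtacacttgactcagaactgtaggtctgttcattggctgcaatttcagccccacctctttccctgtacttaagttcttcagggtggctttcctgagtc

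AGGTCA was found in all 4 of the promoters whose genes rose, in that of Cyp2b19, which had no counts, and not in those of Cyp3a13, Cyp2b10 and Por. It occurred in 14.02% of all 32851 RefSeq promoters of this length. In Cyp3a25 and Cyp3a59 it stood in opposite orientations at -176 to -171 and -155 to -150, and at -177 to -172 and -156 to -151, counted from the start. In Cyp3a11 it stood at -162 to -157, followed by AGTTCA on the opposite strand at -142 to -137, and in Cyp3a44 at -150 to -145. AGTTCA was found in 11.8% of all promoters. The promoters of Cyp3a25 and Cyp3a59 were 95.6% identical and those of Cyp3a11 and Cyp3a44 80.9%, so the letters shared within these pairs are not separate observations. Between the pairs identity was lower, such as 65.7% for Cyp3a11 and Cyp3a25, against 64.4% for Cyp3a11 and Cyp3a13. Pairs of these half-sites as direct repeats with 1, 3 or 4 bases between them, or as an everted repeat with 6, were found in 0 of the 8 promoters and in 0.0670%, 0.0122%, 0.0244% and 0.00913% of all promoters.

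Levels of different members were compared per length. On the FPKM scale (fragments per kilobase, scaled per library), WT mice had 203 ± 109 of Cyp3a13 (SD, n = 7), 49.8 ± 24.6 of Por, 40.7 ± 19.5 of Cyp3a25, 17.9 ± 17.0 of Cyp2b10 and 4.93 ± 3.47 of Cyp3a11. Cyp3a59 (0.278 ± 0.137) and Cyp3a44 (0.0947 ± 0.0657) stood far below. The ranges of neighbours in this order overlapped except between Cyp3a11 and Cyp3a59. Within every WT mouse, however, Cyp3a13 was above Por, Cyp3a25 above Cyp2b10 and Cyp2b10 above Cyp3a11. The order of Por and Cyp3a25 and that of Cyp3a59 and Cyp3a44 varied. In IKO mice Cyp3a13 was at 317 ± 184 FPKM, Cyp3a25 at 281 ± 174, Por at 123.6 ± 53.1, Cyp3a11 at 123.5 ± 102.3, Cyp2b10 at 24.1 ± 15.4, Cyp3a44 at 1.79 ± 1.51 and Cyp3a59 at 1.35 ± 0.56, and each of these ranges overlapped that of the next. Within every IKO mouse Cyp3a25 was above Por, Cyp3a11 above Cyp2b10 and Cyp2b10 above Cyp3a44, while the order of the other neighbours varied. These orders hold for the deposited lengths. The deposited lengths of Cyp3a11 and Por are 2.17 and 1.53 times those of their longest coding transcripts, which lowers both values. For Cyp2b10 and Cyp3a25 they are 1.10 and 1.04 times. With the coding lengths, the orders of Cyp3a11 and Cyp2b10 and of Cyp3a25 and Cyp2b10 no longer hold in every WT mouse. That of Cyp3a25 and Por no longer holds in every IKO mouse, and the order of Por and Cyp3a11 in IKO mice depends on the length used.

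The make-up of Cyp3a and Cyp2b RNA was described as the share of each of the 6 expressed enzymes in their summed FPKM. Cyp3a13 made up 72.9% to 82.0% in WT mice (mean 76.4 ± 2.8, SD, n = 7) and 34.3% to 52.4% in IKO mice (42.5 ± 7.0). Cyp3a25 made up 15.8% ± 3.1 in WT and 39.1% ± 6.5 in IKO mice, with ranges of 12.04% to 20.73% and 28.6% to 47.9%. Cyp3a11 made up 1.86% ± 0.82 and 14.6% ± 5.1, with ranges of 1.17% to 3.23% and 7.89% to 22.0%. The genotypes did not overlap in any of these 3 shares. Shares of a common sum are tied, so these are not separate observations. The lower share of Cyp3a13 was not a lower level, as its mean was 203 FPKM in WT and 317 FPKM in IKO mice. Cyp2b10 went from 5.69% ± 3.06 to 3.14% ± 1.06, with overlap. IKO 4, which had the lowest summed FPKM of all mice at 97.0, had 39.8% of Cyp3a13 and 47.9% of Cyp3a25, the highest of all mice, and both shares lay outside the WT range. With the coding length of Cyp3a11 (2344 bases) in place of the deposited one (5093 bases), and likewise for the others, its share was 3.89% in WT and 26.4% in IKO mice.

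**Figure D3:**
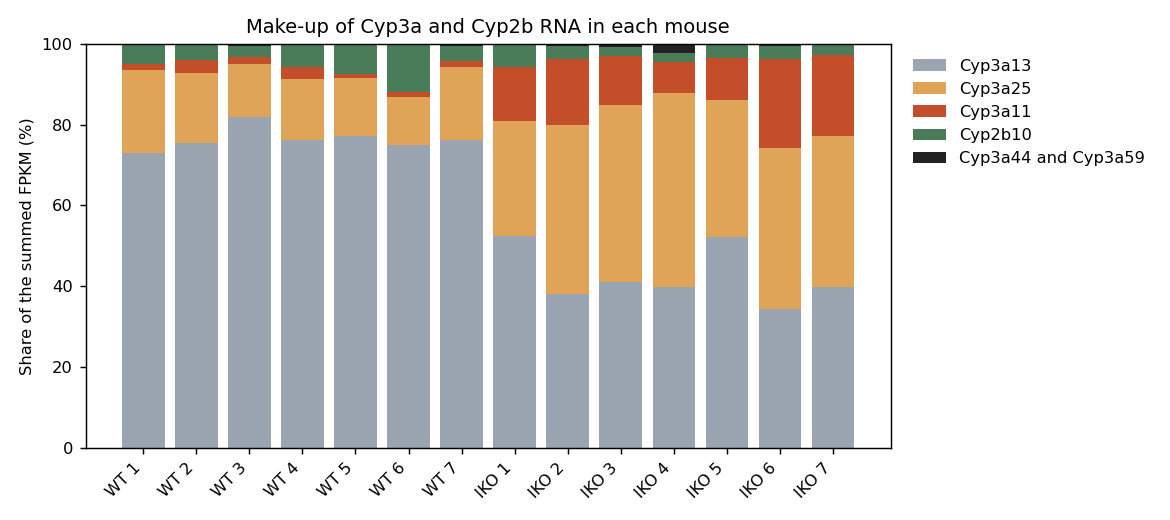
Share of each expressed Cyp3a and Cyp2b gene in their summed FPKM (percent, stacked from 0 to 100) in each of the 14 mice. Cyp3a13 fills 72.9% or more of every WT bar and 52.4% or less of every IKO bar. Cyp3a25, Cyp3a11 and Cyp2b10 make up nearly all of the rest.

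Whether members changed by different amounts was tested on the log2 ratio of 2 members within each mouse, for all 15 pairs of the 6 enzymes, with exact two-sided permutation tests adjusted over the pairs. The smallest p that 3432 divisions of 14 mice can give is 0.000583, and 9 pairs passed. Some of these hold Cyp3a44 or Cyp3a59, which were tested because of their IKO samples, so this number is only a description. The change of Cyp3a11 exceeded that of Cyp3a13 by 3.86 ± 0.33 (SE, log2 scale) and that of Cyp2b10 by 3.76 ± 0.46. The ratio of Cyp3a13 over Cyp3a25 changed by -2.17 ± 0.21, and that of Cyp3a25 over Cyp2b10 by 2.07 ± 0.41. In each of these 4 pairs the ratios of the 7 IKO mice lay apart from those of the 7 WT mice (exact permutation test, p = 0.000583, adjusted p = 0.00219). Cyp3a11 also rose more than Cyp3a25, by 1.69 ± 0.33 (exact permutation test, adjusted p = 0.00524), with 6 of 7 IKO ratios above all WT ratios.

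The low-count members gave wider differences. Cyp3a44 and Cyp3a59 entered these tests only with the help of their IKO samples. A difference was thus built into their ratios, and nothing is read from the p-values of their pairs. The ratio of Cyp3a13 over Cyp3a44 changed by -2.94 ± 0.76 (SE, log2 scale; exact permutation test, adjusted p = 0.0102) and that of Cyp3a44 over Cyp2b10 by 2.83 ± 0.93 (adjusted p = 0.0262, exact permutation test). Cyp3a11 over Cyp3a59 (2.24 ± 0.86) and Cyp3a44 over Cyp3a59 (1.32 ± 0.52) passed narrowly (exact permutation test, adjusted p = 0.0427 for each). These 2 differences held in only 5 and 4 of 16 alternatives, with adjusted p up to 0.0796. Cyp3a11 and Cyp3a44 did not differ past the threshold (0.93 ± 0.86, exact permutation test, adjusted p = 0.356), nor did Cyp3a25 and Cyp3a59 (0.55 ± 0.65, adjusted p = 0.439, exact permutation test), with errors that leave room for differences of more than 1 on the log2 scale. Cyp3a13 and Cyp2b10 kept nearly the same ratio (-0.10 ± 0.31, exact permutation test, adjusted p = 0.749).

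**Figure D4:**
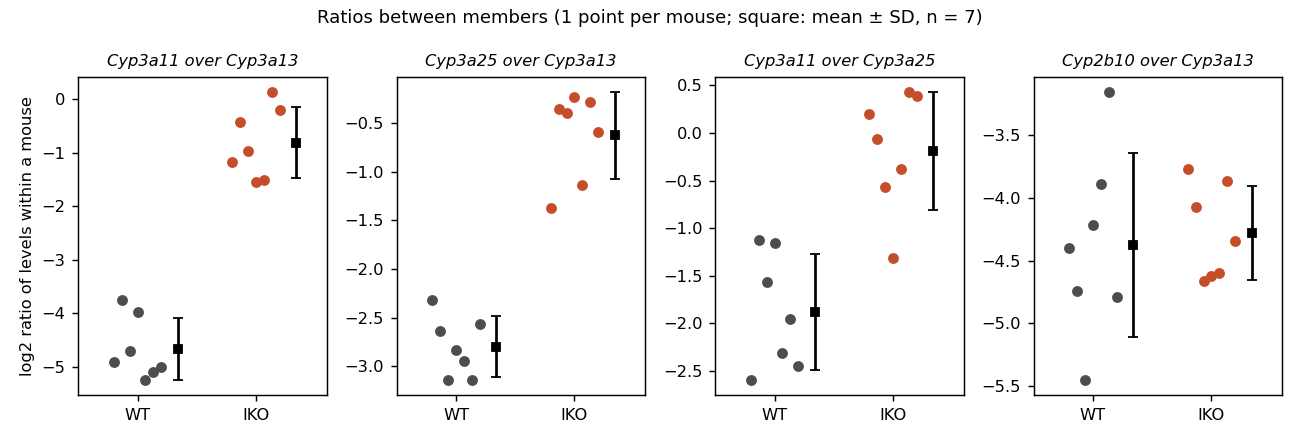
Log2 ratio of the levels of 2 members within a mouse (log2 CPM with a prior count of 2), with 1 point per mouse and a square for the mean ± SD of 7. The ratios of Cyp3a11 and Cyp3a25 to Cyp3a13 are apart between WT and IKO mice, and those of Cyp2b10 to Cyp3a13 overlap.

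The receptors that act on these genes were read from a list of 8 receptors and partners, of which 7 were tested, 0 rose and 1 fell (4.28% of all genes tested fell), with a median log2 fold change of 0.11 against -0.09 over all genes. Nr1i2, which encodes PXR, was at 79.9 to 257 CPM in WT mice (median 111) and 164 to 293 CPM in IKO mice (median 218). Every IKO mouse lay above the WT median, and WT 2 lay among the IKO mice. Its log2 fold change of 0.73 (SE 0.24, adjusted p = 0.0675, edgeR) missed the threshold, which it passed without WT 2 (0.98, adjusted p = 0.0096) and with DESeq2 (0.77, adjusted p = 0.0234). It passed in only 5 of 27 alternative fits, and in 1 of the 14 that left out 1 sample. Nr1i3, which encodes CAR, had 1.13 to 11.5 CPM in WT and 1.97 to 5.84 CPM in IKO mice, and did not pass (log2 fold change -0.63, SE 0.52, adjusted p = 0.422, edgeR). The gene that fell was Ahr, the aryl hydrocarbon receptor that governs Cyp1 genes. It went from a median of 8.07 CPM to 4.21 CPM with overlapping ranges (log2 fold change -1.02, SE 0.27, adjusted p = 0.0349, edgeR). The Ahr call was lost, at adjusted p between 0.0540 and 0.0796, without any of WT 1, WT 5, WT 6, WT 7, IKO 1, IKO 2, IKO 4, IKO 5 or IKO 7.

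Of the electron transfer partners of P450 other than Por, 7 of 8 were tested and 1 rose, with a median log2 fold change of 0.29, where 4.38% of all genes tested rose. The gene that rose was Cyb5a, cytochrome b5 of the endoplasmic reticulum, at 102 to 313 CPM in WT mice (median 173) and 272 to 603 CPM in IKO mice (median 380). Its log2 fold change was 1.17 (SE 0.24, adjusted p = 0.0116, edgeR), and 1.15 (adjusted p = 0.0556) without WT 3, WT 4 and IKO 4. The heme synthesis list had 8 of 8 genes tested and 2 called, both higher, with a median of 0.34, beside the same 4.38% of all genes. Alas1, the rate-limiting first enzyme of heme synthesis, was at 65.4 to 132 CPM in WT mice (median 88.0) and 209 to 373 CPM in IKO mice (median 260). No IKO mouse came near the WT range, and the log2 fold change was 1.55 (SE 0.20, adjusted p = 0.000547, edgeR).

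Of 12 other known targets of PXR and CAR, 11 were tested, 6 rose, 0 fell and 5 did not pass, with a median log2 fold change of 1.59, where 4.38% of all genes tested rose. The list was chosen with earlier results of these data known, so the count is only a description. Cyp2c55, a P450 of the intestine, was at 2.15 to 6.37 CPM in WT and 8.31 to 228 CPM in IKO mice (log2 fold change 4.45, SE 0.53, adjusted p = 0.000267, edgeR). Ces2a, a carboxylesterase that hydrolyses ester drugs, was at 147 to 387 CPM in WT and 901 to 2239 CPM in IKO mice (2.87, SE 0.28, adjusted p = 7.58e-05, edgeR). In both genes the genotypes did not overlap.

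Akr1b7, an aldo-keto reductase, rose by a log2 fold change of 2.10 (SE 0.25, adjusted p = 0.000265, edgeR), again without overlap. Gsta1, a glutathione transferase with close copies whose read sharing was not examined, rose by 2.01 (SE 0.43, adjusted p = 0.0132, edgeR) with overlap, and was at 2.05 (adjusted p = 0.0547) without WT 3, WT 4 and IKO 4. The drug efflux pumps of the list, Abcb1a, Abcc2 and Abcc3, were among the 5 that did not pass. Among all other P450 genes of families 1 to 3, a wider list of 77, only 12 were high enough to test and their median log2 fold change was 0.07. The 2 that rose, beside 4.38% of all genes tested, were Cyp2c55 and Cyp2c66, a related Cyp2c enzyme that went from 0 to 4.40 CPM in WT mice to 2.73 to 72.2 CPM in IKO mice (log2 fold change 4.38, SE 0.73, adjusted p = 0.00375, edgeR).

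**Figure D5:**
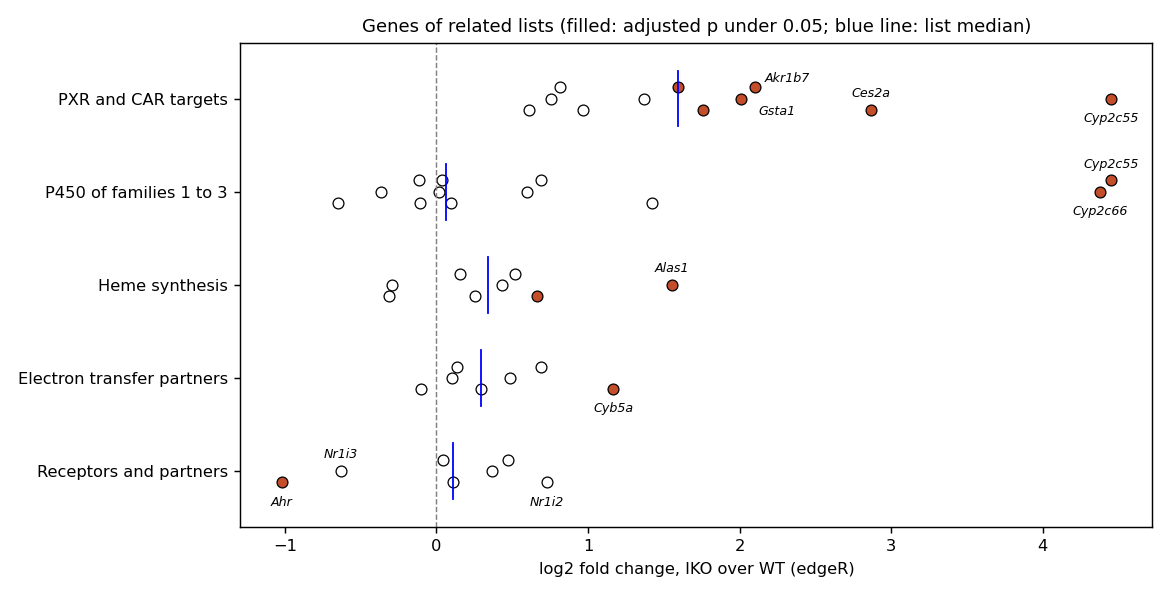
Log2 fold change, IKO over WT, of each tested gene in 5 related lists, filled where the edgeR adjusted p was under 0.05, with a blue line at the median of each list. The medians run from 0.07 for other P450 genes of families 1 to 3 to 1.59 for PXR and CAR targets, and Cyp2c55 stands in 2 lists.

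The level of Cyp3a13, the member with the highest mean FPKM, ran closely with that of several other genes from mouse to mouse. The 5 genes most like it over the 14 mice were F2rl1, Tmem236, Selenoi, Acsl5 and Mep1b, with Pearson r of log2 levels between 0.972 and 0.979. F2rl1 encodes the protease-activated receptor PAR2, Acsl5 an acyl-CoA synthetase and Mep1b the beta subunit of the brush border protease meprin. Within genotypes, r was again 0.972 to 0.979. The points share library, depth and normalization, and 0 of these genes passed the test between genotypes (adjusted p from 0.386 to 0.634, edgeR).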

How the data were processed

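RNA-seq of ileal mucosa from 7 WT and 7 IKO mice was used, grouped by sample title. Per the labels and methods, the authors made NEBNext libraries, read them as 150-base pairs, aligned to mm10 with HISAT2 2.0.5 and counted with featureCounts 1.5.0-p3. Strandedness and the handling of multiply matching reads are not given in the sources used here. The deposited counts are whole and were not normalized. The deposited FPKM equal counts per kilobase scaled by DESeq2 size factors, as checked on the values.

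Counts were filtered with filterByExpr (CPM above 0.548 in at least 7 samples), scaled by TMM and tested in edgeR 4.0.16 (glmQLFit, glmQLFTest; genotype only; Benjamini-Hochberg over 13846 genes; threshold 0.05). CPM use TMM library sizes. The smallest counts limit precision: a library with 0 counts allows up to 3. Alternatives were DESeq2 1.42.0, RLE, other filters, limma 3.58.1 on log2(FPKM + 1) or (FPKM + 0.1), a replicate block, limma-voom with sample weights and left-out samples. Scripts were tested on simulated counts. Each mouse is a sample, and pairs of members were compared by exact permutation.

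The members, lists and tests were chosen with earlier results of these data known. Genes named are the members, Ncor1, Nr1i2, Nr1i3, Cyp3a and Cyp2b rows with counts, up to 4 called genes per list by size of change (1 is not reported here), and the 5 most like Cyp3a13. The drug pumps were named after their values were seen. Promoters came from RefSeq (GRCm38.p6), where 8 of 8 members matched.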

Additional observations from a re-analysis of the deposited data

Results flagged for a closer look

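Por in IKO 4 lay far from the other IKO mice on the log2 scale. Its gap to the next lowest IKO mouse was 0.778 of the range of the 7 mice, past Dixon's 95% critical value for 7 samples. The normalized count was 70.8 CPM in IKO 4 and 415 CPM in IKO 6, the next lowest. Among the 14 groups examined (7 members in 2 genotypes) this was the only such sample, and chance gives about 0.7. Mitochondrially encoded genes took 50.3% of the counts of IKO 4, and their part in this value was not tested.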

How the results depend on the processing

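Cyp3a11 and Cyp3a25 were higher in IKO mice and past the threshold in 27 of 27 alternative fits (log2 fold changes 3.99 to 5.02 and 2.52 to 3.12), and Cyp3a44 and Cyp3a59 in the 26 of 26 that tested them. In fits with a filter on low counts, the latter 2 genes were tested with the help of their IKO samples. Their number is thus only a description. Cyp3a44 and Cyp3a59 had their smallest changes, 1.19 and 0.85, with limma on log2(FPKM + 1), where the pseudocount exceeds their WT values. With at least 10 counts in every sample, 2 members were called, since these 2 genes left the fit. Cyp3a13 and Cyp2b10 passed in 0 of 27 fits and Por in 7 of 27. The ratio of Cyp3a13 over Cyp2b10 changed sign without WT replicate 3 (0.077) and without WT 3, WT 4 and IKO 4 (0.023), where the cause was not tested.

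The number of genes called, 1200, moved more than that of the members. It was 2578 with DESeq2, 508 without a filter, 614 with limma on unfiltered log2(FPKM + 1), 1889 with limma-voom weights, 433 without WT 3, WT 4 and IKO 4, and, in alternatives chosen after seeing the data, 606 without WT 4 and IKO 4 and 706 without IKO 2 and IKO 4. Leaving out 1 sample gave 515 (without IKO 5) to 1371 (without WT 2) genes. It also gave lower numbers without WT 4 (746), WT 7 (600), IKO 1 (526), IKO 2 (728) and IKO 7 (789). The cause was not tested. The listed genes called went from 11 to 17 with DESeq2. Sample numbers were shared between the genotypes but did not pair the mice: correlations of same-numbered deviations ran from -0.305 to 0.232, 1 of 7 was over 0.1, and 1 of 14 samples correlated best with its own number. With the replicate block 362 genes and 4 members were called. Of the differences between members, 6 to 9 of 15 pairs passed with 1 sample left out. Cyp3a44 over Cyp2b10 was lost without WT 5 or IKO 3 (adjusted p = 0.0524 for each, exact permutation test) and without WT 3, WT 4 and IKO 4 (adjusted p = 0.0568, exact permutation test). Depth limits Cyp3a44 and Cyp3a59, whose WT libraries held at most 10 and 17 counts.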
